A study of Ziziphus jujuba var. spinosa with 24 samples.

Results

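Transcripts of the aquaporin ZjPIP2 (LOC107413694) and the alpha-expansin EXPA4 (LOC107414006) were followed in leaves of diploid and autotetraploid sour jujube under drought. Both were chosen by identifier, as a gene of water transport and a gene of cell wall loosening. They are 2 of 32527 genes in the count table, and both were among the 25829 genes with enough reads to be tested. The leaves came from wild type diploid plants of Ziziphus jujuba Mill. var. spinosa and from the autotetraploid, which carries the chromosome set of the diploid doubled. All plants were propagated in vitro (30 days of culture, then 45 days in rooting medium), moved to nutrient solution and kept at 25 °C with 16 h of light and 8 h of dark. Each ploidy gave 4 groups of 3 libraries, a control and plants under 6, 12 and 48 h of drought, which was imposed with polyethylene glycol raised in daily steps to 20%. Neither the concentration reached at each harvest nor the hour of day of harvest is given in the sources used here. Drought and hour of day thus cannot be told apart in any comparison of times. The controls are a single group per ploidy with no stated time. The same limit therefore holds for every comparison with the control and for the interactions.

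Aquaporins are channel proteins that let water cross membranes along an osmotic gradient. The PIP group sits in the plasma membrane, and in many plants its PIP2 members carry most of the water flow through that membrane. Expansins are secreted proteins that loosen the contacts between cellulose and other wall polymers, so that a turgid cell can extend, and alpha-expansins (EXPA) are the group best known from growing tissue. In plants short of water, both turgor and wall extension fall, and genes of both families are commonly measured for that reason.

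The 24 libraries held 30750412 to 50404402 counts, with a median of 37199250, so that counting error was small beside the spread between libraries for both genes, whose counts ran from 1153 to 37856 per library. The labels do not say that the 3 libraries of a group came from separate plants, and p-values rest on library-to-library spread alone, part or all of which may be technical. The first principal component of log2 expression, with 16.8% of the variance, put every control and 48 h library on one side (52.8 to 75.8) and every 6 and 12 h library on the other (−85.6 to −29.6). Replicate 3 of the autotetraploid at 12 h stood apart from its group on the second component, at −67.9 beside 1.92 and 18.7, and edgeR values of both genes that rest on it are given with and without it. Rubisco activase, a chaperone of carbon fixation, was used here as a mark that green leaf was present, not of its amount. It was at or above 128 CPM (counts scaled to library size) for RCA1 and 1603 CPM for RCA2 in every library. In whole leaves, fewer cells of a type and less RNA per cell cannot be told apart.

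The mean level of ZjPIP2 was lowest at 12 h and highest at 48 h in both ploidies. Levels are given as CPM after TMM scaling, which corrects library totals for composition. In diploid controls ZjPIP2 stood at 236, 207 and 181 CPM. After 6 h the diploid libraries read 74.2, 106 and 330.5 CPM. This group straddled the controls, since replicate 3 lay above all of them and the other libraries below. At 12 h the diploid libraries fell to 53.9, 38.7 and 35.9 CPM, under every library of the control and 6 h groups. After 48 h they read 792, 617 and 564 CPM, above every other diploid library.

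In the autotetraploid, ZjPIP2 took the same course of group means with a wider scatter. The controls read 709, 110.0 and 207 CPM, so that replicate 1 alone accounted for most of the group's mean of 342 ± 322 CPM (SD, n = 3). At 6 h the libraries stood at 55.5, 257 and 246 CPM. At 12 h they read 32.3, 96.4 and 36.4 CPM, all below the lowest control. At 48 h replicate 3 reached 783 CPM while replicates 1 and 2 stood at 224 and 232 CPM, inside the range of the controls.

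**Figure D1:**
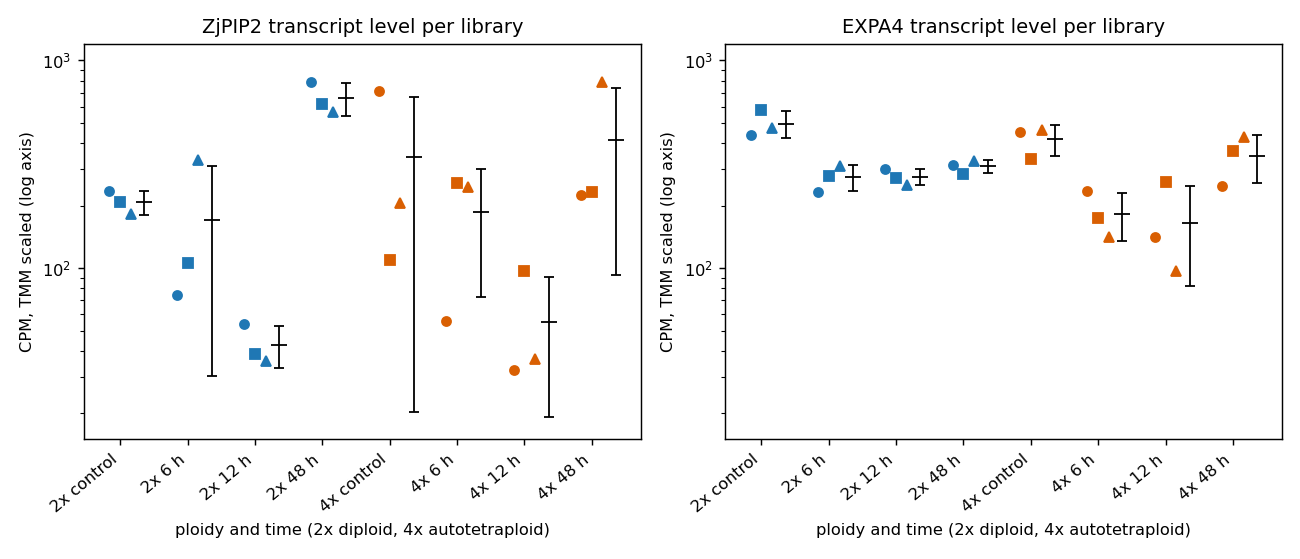
Level of ZjPIP2 (left) and EXPA4 (right) in each library, in CPM after TMM scaling on a log axis. Circles, squares and triangles are replicates 1, 2 and 3 (blue diploid, orange autotetraploid), and black marks give the mean ± SD of 3 libraries. ZjPIP2 is lowest at 12 h (32.3 to 96.4 CPM over both ploidies) and highest in the diploid at 48 h, while EXPA4 is highest in the controls.

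The rise of ZjPIP2 from 12 to 48 h was its largest change in either ploidy. In the diploid it was 15.4-fold, from 42.8 ± 9.66 to 658 ± 119 CPM (SD, n = 3), with a log2 fold change of 3.94 (95% interval 2.27 to 5.61; Benjamini-Hochberg adjusted p = 0.001 by the quasi-likelihood test of edgeR). Of all genes tested, 13.6% were called higher in that comparison. In the autotetraploid the rise was 7.5-fold, from 55.1 ± 35.9 to 413 ± 321 CPM (SD, n = 3), with a log2 fold change of 2.91 (95% interval 1.31 to 4.5; adjusted p = 0.0068), where 15.1% of genes were called higher. No 48 h library overlapped the 12 h libraries in either ploidy. How many of all genes separate in this way was not counted, in this or any other comparison. Separation alone thus sets no gene named here apart. Without replicate 3 of the autotetraploid at 48 h, the library at 783 CPM, the log2 fold change was 2.06 and the call ended (adjusted p = 0.0501). Without the 12 h library that stood apart, the call held, at 2.68 (adjusted p = 0.032).

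Against the controls, ZjPIP2 was called lower at 12 h in both ploidies, by 4.86-fold in the diploid and 6.21-fold in the autotetraploid. The log2 fold changes were −2.28 (95% interval −3.84 to −0.72; adjusted p = 0.026) and −2.63 (95% interval −4.21 to −1.05; adjusted p = 0.013) by edgeR's test. At 12 h, 7794 of the 25829 tested genes were called in the diploid and 7647 in the autotetraploid. Those called lower were 4014 (15.5% of the tested genes) and 4036 (15.6%), and the others were called higher. Neither call held without each library in turn. In the diploid, where the value moved little, it was lost when control replicate 1 was left out (−2.17), and when 12 h replicate 1 (−2.47), 2 (−2.21) or 3 (−2.16) was. In the autotetraploid it was lost on leaving out control replicate 1 (−1.51) or 12 h replicate 1 (−2.36) or 3 (−2.41), the last being the library that stood apart, and also when the model held just the compared libraries (−2.63; adjusted p = 0.079). With the 2 ploidies as strata, the 12 h libraries lay 2.34 below the controls on the log2 CPM scale (exact permutation test within ploidies, two-sided p = 0.005, the smallest that 400 arrangements can give, and 0.015 adjusted over 12 such tests), and this held without each library in turn. All 6 libraries at 12 h stood below all 6 controls, which by itself gives this smallest p. Leaving out a library keeps that separation, so holding without each library adds no support. From 12 to 48 h the same test gave 3.39 (exact permutation test, p = 0.005, adjusted 0.015), which again follows from the separation of the libraries. The exact tests, here and below, were chosen after the data were seen.

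Both rubisco activase genes, the green leaf marks, were also lowest at 12 h in both ploidies. RCA1 stood at 3108 ± 618 CPM in diploid controls, 202 ± 26.3 at 12 h and 4115 ± 419 at 48 h (SD, n = 3), and at 2707 ± 301, 155 ± 23.96 and 4547 ± 449.7 CPM in the autotetraploid. RCA2 read 10133 ± 2542, 3315 ± 576 and 11794 ± 1413 CPM in the diploid and 9832 ± 310.2, 2083 ± 436 and 12796 ± 1059 CPM in the autotetraploid at the same times. For both marks no 12 h library overlapped the controls or the 48 h libraries of its ploidy. From control to 12 h, RCA1 fell 15.4-fold in the diploid and 17.5-fold in the autotetraploid, and RCA2 fell 3.06-fold and 4.72-fold. The 2 marks thus did not fall alike and give no amount of green leaf. Their part in the change of ZjPIP2 was not tested.

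At 6 h ZjPIP2 was not called in either ploidy. Its log2 fold change against the control was −0.29 (95% interval −1.78 to 1.2; adjusted p = 0.83) in the diploid and −0.88 (95% interval −2.38 to 0.62; adjusted p = 0.42) in the autotetraploid. Without diploid 6 h replicate 3, the library at 330.5 CPM, the diploid value was −1.21. The exact permutation test over both ploidies gave −0.66 (p = 0.3, adjusted 0.36). From 6 to 12 h, the log2 fold change of ZjPIP2 was −1.99 in the diploid and −1.76 in the autotetraploid, neither past the threshold (adjusted p = 0.12 and 0.17), where 8.06% and 8.05% of genes were called. The diploid value was −1.06 without diploid 6 h replicate 3, and the autotetraploid one −1.53 without the 12 h library that stood apart. Over both ploidies the difference from 6 to 12 h was −1.68 (exact permutation test, p = 0.015, adjusted 0.032), a result that did not hold without autotetraploid 12 h replicate 3 (adjusted p = 0.086) or without any one of 5 of the other 11 libraries.

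At 48 h ZjPIP2 was not called against the control in either ploidy by edgeR's test. In the diploid all 3 libraries at 48 h exceeded all 3 controls, by a fitted 3.16-fold, yet the log2 fold change of 1.66 (95% interval 0.14 to 3.18) did not pass over all genes (adjusted p = 0.23), and 2.01% of genes were called (520, or 36 to 849 with 1 library left out). When the model held just those 6 libraries, whose spread for this gene was small, the same contrast passed (1.64; adjusted p = 0.046). That fit called 25 genes in all, and it alone of the 10 alternatives passed for ZjPIP2. In the autotetraploid the groups overlapped and the value was 0.27 (95% interval −1.21 to 1.76; adjusted p = 0.86), where 13.5% of genes were called. There the value turned on single libraries, from 1.41 without autotetraploid control replicate 1 to −0.56 without autotetraploid 48 h replicate 3. Across both ploidies the 48 h libraries lay 1.05 above the controls (exact permutation test, p = 0.085, adjusted 0.11). That test passed in 1 of 12 fits with a library left out. The interaction test of the 48 h responses gave −1.39 (95% interval −3.5 to 0.72; adjusted p = 0.88), so a difference between the ploidies was not shown, nor was a like response. It ran from −2.22 without autotetraploid 48 h replicate 3 to −0.25 without autotetraploid control replicate 1.

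ZjPIP2 was one of the more variable genes of its abundance between libraries of the same group. Its pooled within-group SD was 0.92 on the log2 CPM scale, beside a median of 0.12 for the 1000 tested genes nearest in mean level, 98.6% of which varied less. The highest library exceeded the lowest by 1.3-fold in the diploid controls, 1.5-fold at 12 h and 1.4-fold at 48 h, but by 4.46-fold in the diploid at 6 h. In the autotetraploid this ratio was 6.44-fold in the controls, 4.62-fold at 6 h, 2.99-fold at 12 h and 3.49-fold at 48 h. The model shares 1 estimate of the spread among all 8 groups, so that the tight diploid groups were tested against a spread that also holds the diploid 6 h group and the autotetraploid groups. Ordered by mean level, ZjPIP2 was highest in the diploid at 48 h, followed by the autotetraploid at 48 h, its controls, the diploid controls, the autotetraploid and the diploid at 6 h, and the autotetraploid and the diploid at 12 h. Every pair of neighbours in that order overlapped, and none differed at the threshold (adjusted p of 0.19 to 1).

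**Figure D2:**
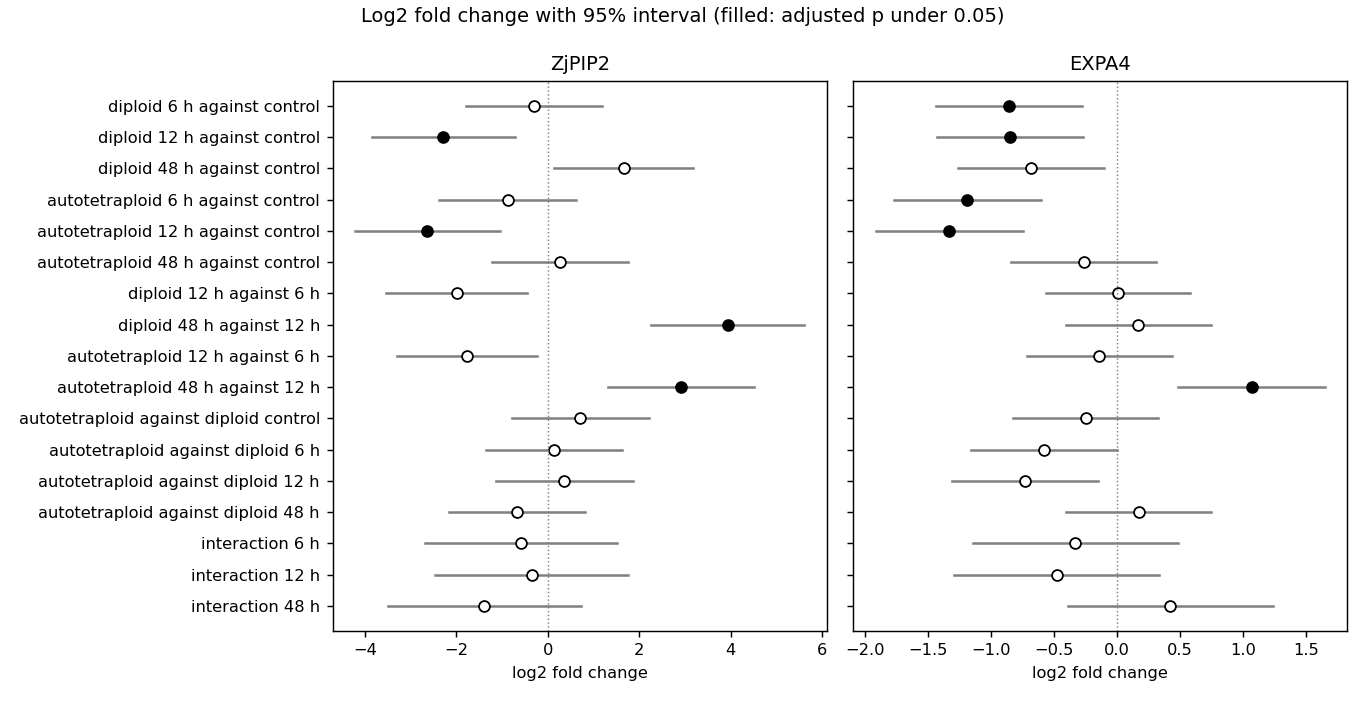
Log2 fold change of ZjPIP2 (left) and EXPA4 (right) in 17 comparisons, with 95% intervals from edgeR's quasi-likelihood model and a separate scale in each panel. Filled points passed an adjusted p of 0.05; these are 4 for ZjPIP2, 2 at 12 h against the control and 2 at 48 h against 12 h, and 5 for EXPA4.

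The deposited FPKM values, which divide fragments by transcript length as well as by library total, did not run parallel to the counts of ZjPIP2. In the diploid controls the CPM by library totals alone were 224, 205 and 179 and the FPKM values 108, 109 and 58.0, so that replicate 3 stood slightly below replicate 2 in CPM and far below it in FPKM. Dividing counts by FPKM and by the library total gives an implied length in bases, which is the length behind the FPKM if both were made from the same read assignments; that was not tested. For ZjPIP2 this length ran from 1815 to 4117 bases between libraries, a 2.27-fold range. Its coefficient of variation of 23.9% was larger than that of 99.5% of the 11684 genes with a mean of over 500 counts, whose median was 1.3%. For EXPA4 the length ran from 1385 to 1437 bases, a 1.04-fold range.

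In the diploid the implied length of ZjPIP2 was 2077, 1869 and 3086 bases in the controls, 3796, 3193 and 3110 at 6 h, 3269, 3890 and 3233 at 12 h, and 2935, 2195 and 1835 at 48 h. All 6 diploid libraries of 6 and 12 h thus lay above all 6 of the controls and 48 h. In the autotetraploid these times overlapped. Its controls stood at 3215, 4117 and 3025 bases, its 6 h libraries at 3059, 3042 and 1874, and its 48 h libraries at 2148, 3062 and 2950. In the autotetraploid at 12 h it was 3877 and 3286 bases in replicates 1 and 3 and 1815 in replicate 2, the library with the highest ZjPIP2 level of that group. How the FPKM were computed is not given in the sources used here, and a change of transcript form was not tested. The main tests of ZjPIP2 rest on counts. On FPKM values the fall in the autotetraploid at 12 h did not pass (limma on log2(FPKM + 1), −1.9; adjusted p = 0.076), and the ploidy difference in the controls and the interactions at 6 and 12 h, called under neither unit, changed sign. The same fit moved other uncalled values of ZjPIP2 by over 1.5 times. Against the controls it gave −1.1 in the diploid and −0.31 in the autotetraploid at 6 h, and 0.72 in the autotetraploid at 48 h. Between ploidies it gave 0.52 at 6 h and −1.17 at 48 h, and −0.9 for the interaction at 48 h.

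**Figure D3:**
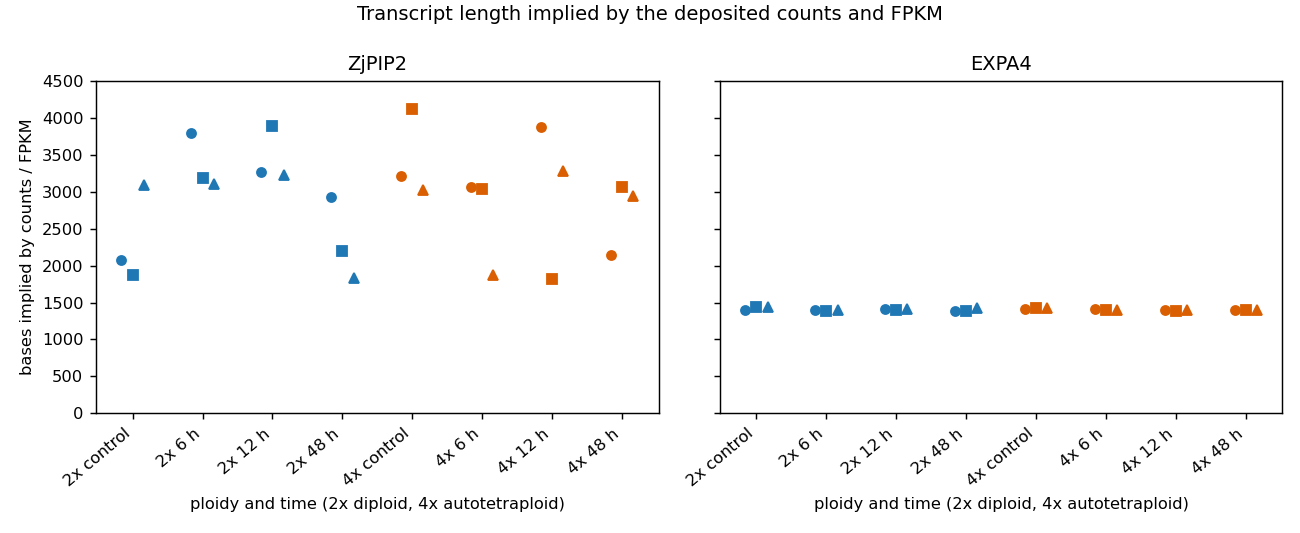
Transcript length in bases implied by the deposited counts and FPKM of each library, for ZjPIP2 (left) and EXPA4 (right). Symbols are replicates 1, 2 and 3. EXPA4 keeps 1 length within 1385 to 1437 bases, while ZjPIP2 ranges from 1815 to 4117 bases and differs within groups.

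EXPA4 was highest in the controls and lower at 6 and 12 h in both ploidies. The diploid controls read 438, 577 and 472 CPM. At 6 h the diploid libraries stood at 234, 277 and 310.2 CPM, and at 12 h at 301, 271 and 252 CPM. At 48 h they read 315, 284 and 327 CPM. Thus all 9 diploid drought libraries lay below the lowest diploid control, and the 3 drought times overlapped one another.

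In the autotetraploid EXPA4 was low at 6 and 12 h, and 2 of 3 libraries at 48 h were within the range of the controls. The controls read 451, 337 and 464 CPM. The 6 h libraries stood at 235, 174 and 141 CPM, and the 12 h libraries at 142, 259 and 96.4 CPM, the last being the library that stood apart. At 48 h the level was 249, 365 and 428 CPM, which overlapped the controls.

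By edgeR's test EXPA4 was called lower at 6 and 12 h in both ploidies. In the diploid the log2 fold changes were −0.86 (95% interval −1.44 to −0.28; adjusted p = 0.032) at 6 h and −0.85 (95% interval −1.43 to −0.27; adjusted p = 0.025) at 12 h, about 1.81-fold and 1.8-fold falls. For the autotetraploid they were −1.19 (95% interval −1.77 to −0.61; adjusted p = 0.0037) and −1.33 (95% interval −1.92 to −0.75; adjusted p = 0.0012), falls of 2.28-fold and 2.52-fold. At 6 h, 9.93% of all tested genes were called lower in the diploid and 12.4% in the autotetraploid. The autotetraploid calls held without each compared library in turn, with −1.06 at 12 h without the library that stood apart. When the model held just those 6 libraries, the 12 h call ended (adjusted p = 0.058). Of the green leaf marks, RCA1 at 6 h stood at 1965 ± 590.3 CPM in the diploid and 1312 ± 251 CPM in the autotetraploid (SD, n = 3), below every control of its ploidy. RCA2 at 6 h stood at 13946 ± 3582 and 12246 ± 1204 CPM (SD, n = 3), overlapping the controls in the diploid and above them in the autotetraploid. Both marks were below the controls at 12 h, as given above, and their part in the change of EXPA4 was not tested.

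The diploid calls of EXPA4 were less firm, although no library overlapped. At 6 h it was lost on leaving out control replicate 2 (−0.73) or 3 (−0.90), or any of the 6 h replicates 1 (−0.76), 2 (−0.87) and 3 (−0.96). At 12 h it was lost on leaving out control replicate 2 (−0.71) or 12 h replicate 2 (−0.84) or 3 (−0.78). The 12 h call ended also when libraries were scaled by their totals alone (−0.73; adjusted p = 0.056) and in the 3 limma fits on FPKM (adjusted p of 0.057 to 0.061), 4 of 10 alternatives in all. With the ploidies as strata, EXPA4 was lower than the control by 1.03 at 6 h and by 1.14 at 12 h on the log2 CPM scale. At both times, all 6 libraries lay below all 6 controls. Each exact permutation test within ploidies, chosen after the data were seen, gave p = 0.005 (adjusted 0.015). This is the smallest p it can give and follows from that separation. Each result held without each library in turn, but leaving out a library keeps that separation, so this adds no support.

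At 48 h EXPA4 was no longer called in either ploidy by edgeR's test. The diploid value was −0.68 (95% interval −1.26 to −0.11; adjusted p = 0.19) with no overlap between the groups, and the autotetraploid one −0.26 (95% interval −0.84 to 0.31; adjusted p = 0.59), which was −0.052 without autotetraploid 48 h replicate 1 and −0.42 without its replicate 3. Over both ploidies the level was lower than in the controls by 0.48 on the log2 CPM scale (exact permutation test, p = 0.02, adjusted 0.032). That result failed when 8 of the 12 libraries were left out in turn, with adjusted p-values of up to 0.08. From 12 to 48 h EXPA4 rose 2.09-fold in the autotetraploid, a log2 fold change of 1.07 (95% interval 0.49 to 1.65; adjusted p = 0.0064), and 0.79 (adjusted p = 0.03) without the library that stood apart. When the model held just those 6 libraries it did not pass (adjusted p = 0.12). In the diploid the value was 0.17 (95% interval −0.41 to 0.74; adjusted p = 0.72). Over both ploidies the 48 h libraries lay 0.66 above those of 12 h (exact permutation test, p = 0.02, adjusted 0.032), which held in 3 of 12 fits with a library left out and did not hold when libraries were scaled by their totals alone (0.48; exact permutation, adjusted p = 0.2). The step from 6 to 12 h gave 0.01 and −0.14 in the diploid and the autotetraploid (adjusted p = 1 and 0.87), the latter 0.13 without the library that stood apart.

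EXPA4 also varied more than most genes of its abundance, though less than ZjPIP2. Its pooled within-group SD of 0.35 on the log2 CPM scale exceeded that of 91% of the 1000 genes nearest in level, whose median was 0.14. The highest library exceeded the lowest by 1.15-fold to 1.33-fold in the diploid groups and by 1.38-fold to 2.69-fold in the autotetraploid groups. In the order of mean levels the diploid controls came first with 496 ± 72.8 CPM (SD, n = 3) and the autotetraploid at 12 h last with 166 ± 83.9 CPM (SD, n = 3). Neighbours in the order overlapped, and none differed at the threshold (adjusted p of 0.59 to 1).

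The ploidies were compared within each treatment to ask whether the level of either gene differed between them. The labels give no number of independent lines, so genome doubling and line history cannot be told apart. CPM are relative to the library total, so a change shared by all transcripts would not show. Neither gene was called by edgeR's test in any of the 4 treatments, where the share of genes called was 0% in the controls, 0% at 6 h, 0.0194% at 12 h and 0.139% at 48 h. Before adjustment EXPA4 was under 0.05 in edgeR's test at 6 and 12 h, and ZjPIP2 in no treatment. Over all genes 2230 in the controls, 1919 at 6 h and 1372 at 12 h were under it. In the controls and at 6 h, where edgeR called none, DESeq2 called 180 and 111. DESeq2 and limma called neither gene. EXPA4 stood lower in the autotetraploid by log2 fold changes of −0.25 (95% interval −0.82 to 0.33) in the controls, −0.58 (−1.16 to −0.003) at 6 h and −0.73 (−1.31 to −0.15) at 12 h, and higher by 0.17 (−0.4 to 0.75) at 48 h. Leaving out 1 library moved these values between −0.34 and −0.12 in the controls, where autotetraploid replicate 2 gave the value nearest 0. At 12 h it moved them between −1.21 without autotetraploid replicate 2 and −0.46 without the library that stood apart, and at 48 h between 0.0081 without autotetraploid replicate 3 and 0.38 without its replicate 1. ZjPIP2 gave 0.72 (95% interval −0.78 to 2.21), 0.13 (−1.36 to 1.61), 0.36 (−1.13 to 1.86) and −0.67 (−2.16 to 0.82) in the same order, the 12 h value being 0.59 without the library that stood apart and the 48 h value −1.51 without autotetraploid replicate 3.

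Averaged over the 4 treatments, EXPA4 was lower in the autotetraploid by 0.39 on the log2 CPM scale (exact permutation test within treatments, 160000 arrangements, two-sided p = 0.021, adjusted 0.032). Left-out libraries moved this value between −0.49 and −0.31. It no longer passed without 13 of the 24, among them autotetraploid 12 h replicate 3 (−0.31; adjusted p = 0.069). For ZjPIP2 the averaged difference was −0.07 (exact permutation test, p = 0.84). The interaction tests, which ask whether the drought responses of the ploidies differed, called neither gene, with log2 values of −0.59, −0.35 and −1.39 for ZjPIP2 and −0.33, −0.48 and 0.42 for EXPA4 at 6, 12 and 48 h. Without the 12 h library that stood apart, the 12 h values were −0.13 and −0.21. With 1 library left out those of EXPA4 ran from −0.54 to −0.16 at 6 h, from −0.96 to −0.21 at 12 h and from 0.27 to 0.63 at 48 h, the extremes coming from autotetraploid replicates 1 and 3 at 6 h, 2 and 3 at 12 h, and 3 and 1 at 48 h. No interaction was called for any gene (0%), while 6.39%, 4.69% and 6.3% of genes had an unadjusted p under 0.05 and DESeq2 called 92, 78 and 156 genes. The 95% intervals of the interactions ran from −3.5 to 1.75 over the 3 values of ZjPIP2 and from −1.29 to 1.23 over those of EXPA4.

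Per transcript length, the deposited FPKM values placed EXPA4 above ZjPIP2 in 20 of the 24 libraries. The ratio of ZjPIP2 to EXPA4 was lowest in the diploid at 12 h, with 0.078, 0.051 and 0.062, and highest in the diploid at 48 h, with 1.19, 1.38 and 1.34. The single other library above 1 was autotetraploid replicate 3 at 6 h, with 1.3. These ratios carry the varying implied length of ZjPIP2. By mean FPKM, EXPA4 ranked above 97.6% to 99.4% of the listed genes, depending on the group. ZjPIP2 ranked above 99.2% in the diploid at 48 h and above 68.3% in the diploid at 12 h.

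EXPA4 was then set beside the other named expansins, EXPA5 (LOC107411451), a second alpha-expansin, and EXPL1 (LOC107427312), an expansin-like gene; no other aquaporin carries an established name in the reference table. Of the 3 expansins, 2 were called lower and 1 was not called at 6 h and at 12 h in each ploidy, the 2 being EXPA4 and EXPA5 every time. Of all genes, 9.93% and 15.5% were called lower at these times in the diploid and 12.4% and 15.6% in the autotetraploid. The median log2 fold change of the 3 was EXPA4's own value in each of these comparisons. EXPL1, the one not called, had means of 15.6, 12.7 and 15.4 CPM in the diploid and 12.3, 12.3 and 16.2 CPM in the autotetraploid at control, 6 and 12 h, and its libraries at 6 and 12 h overlapped the controls. EXPA5 fell at each time, with log2 fold changes of −1.62 and −1.21 in the diploid and −2.18 and −1.94 in the autotetraploid at 6 and 12 h (adjusted p = 0.0027, 0.013, 0.00018 and 0.00038). Without the library that stood apart the last was −1.75 (adjusted p = 0.0034). The diploid 12 h call ended without diploid control replicate 2 (−1.06; adjusted p = 0.052).

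From 12 to 48 h in the autotetraploid the expansins parted. EXPA4 and EXPA5 rose, EXPA5 by 1.07 on the log2 scale (adjusted p = 0.025), and EXPL1 fell by 1.18 (adjusted p = 0.00084), or by 1.4 without the library that stood apart. Of all genes 15.1% were called higher and 15.3% lower there. Over the 3 autotetraploid libraries, EXPL1 stood at 15.4, 22.5 and 10.7 CPM at 12 h and at 4.95, 8.07 and 8.49 CPM at 48 h, with no overlap. The call of EXPA5 ended without autotetraploid 12 h replicate 1 or 3 or autotetraploid 48 h replicate 3, with library totals alone, and with just the compared libraries in the model. In the diploid EXPL1 alone was called from 12 to 48 h, lower by a log2 fold change of −0.71 (adjusted p = 0.032), where 12.6% of all genes were called lower, while EXPA5 gave 0.16 (adjusted p = 0.79). Against the controls at 48 h, no expansin was called in the diploid, where 2.01% of all genes were called. All 3 nonetheless stood below the controls there with no overlap. The log2 fold changes were −0.68 for EXPA4, −1.05 for EXPA5 and −0.73 for EXPL1 (adjusted p = 0.19, 0.11 and 0.11 by edgeR's test). EXPL1 alone was called in the autotetraploid (−0.78, adjusted p = 0.036 by edgeR's test), where 7.43% of all genes were called lower. That last call ended without autotetraploid control replicate 1 or 3, without autotetraploid 48 h replicate 1 or 2, with just the compared libraries, and with the replicate number as a block (adjusted p = 0.051).

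**Figure D4:**
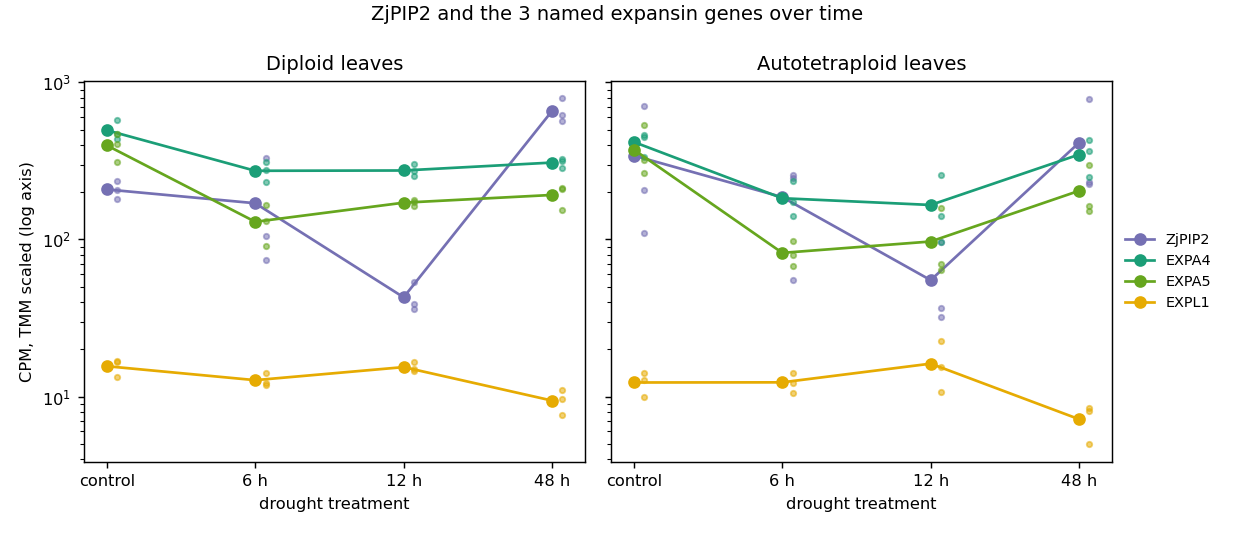
Mean level of ZjPIP2 and of the 3 named expansin genes over time in diploid (left) and autotetraploid (right) leaves, in CPM after TMM scaling on a log axis; large points are means of 3 libraries, small points the libraries, and times are evenly spaced. EXPA4 and EXPA5 lie below their controls at 6 and 12 h in both ploidies, while EXPL1, at 7.17 to 16.2 CPM, is lowest at 48 h.

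ZjPIP2 and EXPA4 were then compared library by library. Since libraries of the control and 48 h groups and those of the 6 and 12 h groups formed separate clusters, no correlation over all 24 is given. Within the 12 control and 48 h libraries Pearson's r of log2 CPM was −0.19 (permutation test, p = 0.55) and Spearman's rho −0.36 (p = 0.24). Within the 12 libraries of 6 and 12 h r was 0.13 (permutation test, p = 0.68) and rho 0.26 (p = 0.42). The 12 autotetraploid libraries, which span both clusters, gave r = 0.66 (permutation test, p = 0.022, adjusted 0.15 over 7 relations) and rho = 0.46 (p = 0.13), and r fell to 0.37 without replicates 1 and 3 of 12 h. The 12 diploid libraries gave r = 0.34 (permutation test, p = 0.29) and rho = 0.54 (p = 0.075). Libraries in these sets were shuffled freely, so differences between group means enter r, rho and p. For the deviations from group means that follow, shuffling was kept within groups. Once each group's mean was subtracted, r over the 24 libraries was 0.36 (permutation test, p = 0.2) and rho 0.40 (p = 0.14), and r was 0.32 without the 2 libraries farthest from the median of ZjPIP2. None of the 7 relations passed after adjustment.

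**Figure D5:**
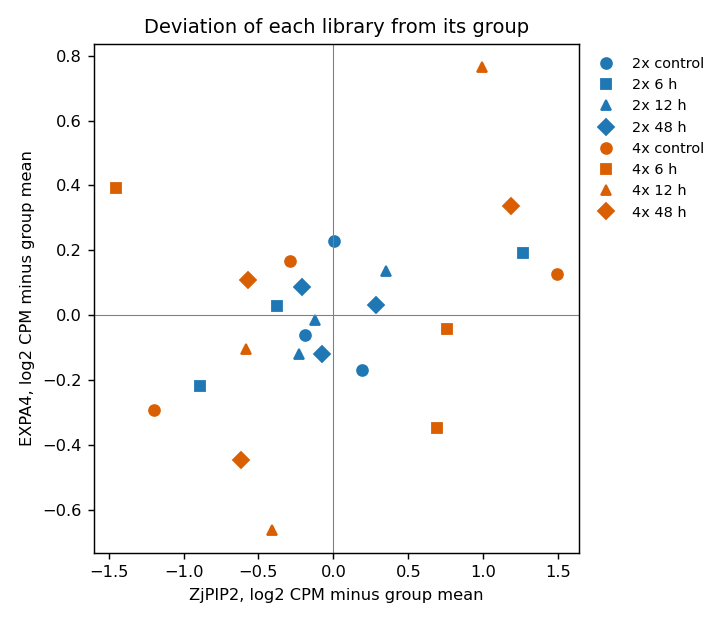
Deviation of each of the 24 libraries from its group mean in log2 CPM, ZjPIP2 on the horizontal and EXPA4 on the vertical axis, coloured by group. The points spread far more along ZjPIP2 (pooled SD 0.92) than along EXPA4 (0.35), and the correlation of 0.36 did not pass its permutation test.

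The genes most like each member were ranked by Pearson's r of log2 CPM over the 24 libraries, among 16383 genes with a mean of at least 5 CPM. These r values describe libraries that share treatment, depth and composition. For ZjPIP2 the first 5 were LOC107416265, LOC107420065, LOC107428108, LOC107404679 and LOC107429830, with r of 0.862, 0.861, 0.859, 0.857 and 0.857. Over the 8 group means they ranked 134, 8, 181, 366 and 3 in the same order, so most did not stay near the top. LOC107428108 had diploid means of 190, 113, 42.3 and 212 CPM and autotetraploid means of 138, 100.1, 37.5 and 149 CPM in the control, 6, 12 and 48 h groups, low at 12 h as ZjPIP2 was. Among genes with an established name, ZjPIP2 ran closest to RCA1 (0.82) and catalase (0.81), the enzyme that breaks down hydrogen peroxide. Within groups these values were 0.38 and 0.31, below those of EXPA5 (0.44) and EXPL1 (0.42). Over the 24 libraries the r of these 2 expansins with ZjPIP2 was 0.44 and −0.41. For EXPA4 the first 5 were LOC107424566 (0.896), EXPA5 (0.877), LOC107421210 (0.874), LOC107416892 (0.864) and LOC107424622 (0.859). Over the 8 group means these ranked 81, 2, 52, 38 and 11 in the same order, and r of EXPA5 was 0.961. Within groups its r with EXPA4 was 0.55, below that of EXPL1 (0.70), whose r over the 24 libraries was 0.038. The 24 libraries hold the 2 clusters of times described above, and r over all of them includes the difference between these.

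Neighbours were taken as the nearest protein-coding genes in the gene order of the reference assembly ASM3175591v1, other genes being skipped. Whether neighbours share a chromosome was not checked. By this order ZjPIP2 is followed by LOC107405653, which had 142 counts in all libraries together and was not tested. By the same order EXPA4 lies between LOC107413998, with 9181 counts in all, and LOC107414005, with 15351. Against the controls, edgeR called LOC107413998 lower in the diploid at 12 h, with a log2 fold change of −1.44. In the autotetraploid it did so at 6, 12 and 48 h (−0.98, −1.50 and −1.23). LOC107414005 was called lower in the autotetraploid at 12 and 48 h (−0.51 and −0.70). Neither was called in the other comparisons with the control. Of all genes, 15.5% were called lower in the diploid at 12 h. In the autotetraploid 12.4%, 15.6% and 7.43% were, at 6, 12 and 48 h. The build of the deposited tables is not given in the sources used here, so no coordinates are printed.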

How the data were processed

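Gene counts and FPKM values were deposited by the authors for 24 leaf RNA-seq libraries; per the submitters' processing notes HISAT2 and StringTie were used, whose roles and settings, like the annotation and genome build, are not given in the sources used here. All deposited counts were whole numbers per gene, not normalized, and 0 columns lacked a sample. The deposited FPKM values, per the file headers, were listed in a table per group.

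Both members and all gene lists were chosen with earlier results of these data known. The text names both members in every comparison, the expansins and aquaporins with an established symbol, and the 5 genes most like each member; family lists by sequence and promoter motifs are not used here. Gene names came from RefSeq for ASM3175591v1, which matched 19767 of 29293 LOC identifiers. The named genes whose correlations are given were picked after their values were seen.

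Counts were fitted in R 4.3.3 with edgeR 4.0.16 (filterByExpr by group, TMM, robust quasi-likelihood), 8 groups in 1 model, and Benjamini-Hochberg adjustment over 25829 genes at 0.05. Intervals use a standard error derived from the fold change and its F value. DESeq2 1.42.0, limma 3.58.1 on log2(FPKM + 1) and log2(FPKM + 0.1), other scalings and filters, subsets and left-out libraries were alternatives. The exact permutation tests within strata, the within-group correlations and limma on log2 CPM were chosen after seeing the data. Correlations used 100000 resamples. Scripts were tested on simulated data. No pair of replicates agreed within sampling noise (chi-square per degree of freedom of at least 39.9).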

Additional observations from a re-analysis of the deposited data

How the results depend on the processing

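Of 340 refits of the members' log2 fold changes (34 results, 10 alternatives), 320 kept their direction and side of the threshold. None of the 200 for drought or later times reversed. Most of the 34 results were uncalled in the main fit and stayed so. Among the called ones, EXPA4 in the diploid and ZjPIP2 in the autotetraploid at 12 h each stayed called in 6 of 10. In the autotetraploid EXPA4 did so in 9 at 12 h and in 9 from 12 to 48 h. The remaining calls held in all 10. Scaled by library totals, EXPA4 in the diploid at 12 h was −0.73 (adjusted p = 0.056); limma on FPKM gave −0.70 with a pseudocount of 1, −0.71 with 0.1 and −0.70 over all listed genes. For ZjPIP2 the same 3 fits gave −1.90, −1.96 and −1.90 in the autotetraploid at 12 h, and reversed its ploidy difference in the controls (−0.27, −0.27, −0.27) and its interactions at 6 h (0.79, 0.81, 0.79) and 12 h (0.77, 0.79, 0.77). With only the compared libraries, ZjPIP2 in the diploid at 48 h passed (1.64), and ZjPIP2 (−2.63) and EXPA4 (−1.33) in the autotetraploid at 12 h and EXPA4 from 12 to 48 h (1.08) did not. With library totals, the exact tests of EXPA4 gave 0.014 from 6 to 12 h, reversed, and 0.48 from 12 to 48 h (exact permutation, adjusted p = 0.2). The autotetraploid correlation was 0.53 on FPKM and 0.31 within groups. Beyond these constructions the cause was not tested.

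Leaving out 1 library moved EXPA4 between −0.96 and −0.73 (diploid 6 h), −0.92 and −0.71 (diploid 12 h), −0.080 and 0.12 (diploid, 6 to 12 h) and −0.62 and 0.13 (autotetraploid, 6 to 12 h). ZjPIP2 moved between −1.21 and 0.061 (diploid 6 h), −2.47 and −2.16 (diploid 12 h), −1.29 and 0.24 (autotetraploid 6 h), −3.31 and −1.51 (12 h), −0.56 and 1.41 (48 h) and 2.06 and 3.59 (12 to 48 h). Its ploidy differences moved between −0.40 and 1.13 (control), −0.22 and 1.05 (6 h) and −0.32 and 0.63 (12 h), and its interactions between −1.0 and 0.54 (6 h) and −1.03 and 0.77 (12 h). The exact tests of EXPA4 moved between −0.30 and 0.06 (6 to 12 h), 0.49 and 0.85 (12 to 48 h), −0.57 and −0.37 (48 h) and −0.49 and −0.31 (ploidy), and those of ZjPIP2 between −2.04 and −1.36 (6 to 12 h), 0.75 and 1.42 (48 h) and −0.26 and 0.11 (ploidy).

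Libraries share only a replicate number: the 84 same-number correlations of deviations ran from −0.0997 to 0.0962. With the replicate number as a block, ZjPIP2 in the autotetraploid at 12 h was −2.64 (adjusted p = 0.023), and no call of either member changed.

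Between alternatives, the count of all genes called ran from 850 to 3411 around 2080 (autotetraploid, 6 to 12 h), 4759 to 9335 around 7647 (12 h), 4923 to 9478 around 7846 (12 to 48 h), 881 to 4986 around 3490 (48 h), and in the diploid 3570 to 6696 around 5510 (6 h) and 25 to 1813 around 520 (48 h). Ploidy counts ran from 2 to 134 around 5 at 12 h and 8 to 421 around 36 at 48 h.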
